A study of Mus musculus with 12 samples.

Results

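Antagomir-21 was compared with a scramble oligonucleotide in peritoneal macrophages (PMs) that also received exosomes of sensory neurons overexpressing miR-21. The comparison holds 4 of the 12 arrays of the series, chosen by their titles: 2 arrays of antagomir-21–transfected PMs and 2 arrays of scramble-transfected PMs, all mouse cells given the same kind of exosomes. It asks what blocking miR-21 changes in the macrophage while neuronal miR-21 is being supplied. The other arrays hold PMs given lipofectamine, the transfection reagent, with miR-21 exosomes (2 arrays), and the 3 transfection groups with exosomes of neurons carrying a GFP reporter (6 arrays). The study used C57BL/6 mice of both sexes, and neither the age nor the number of the mice behind an array is given for these cells. Biological triplicates are described in the methods, whereas the labels hold 2 replicates per group and do not say that these came from separate animals or cultures, so p-values measure only the spread between these arrays, which may be technical.

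Mature miR-21 is held by an Argonaute protein and pairs with messenger RNAs through its seed, bases 2 to 8 from the 5′ end, which lowers the level or the translation of those RNAs. An antagomir is a modified antisense RNA that binds the mature miRNA and blocks it. In macrophages miR-21 is known for restraining inhibitors of growth factor signaling and of the PI3K pathway, and components of TGF-β signaling. The arrays read messenger RNAs and not the mature miRNA, so the block itself is not measured here. The sequences below are those of the blocked miRNA and of its mouse relatives, shown because antagomir-21 is directed at the first, with the seed in capitals (RefSeq, GRCm38.p6).
mmu-miR-21a-5p: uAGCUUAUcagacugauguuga
mmu-miR-21b: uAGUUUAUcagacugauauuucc
mmu-miR-21c: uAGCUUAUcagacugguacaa
The first lies at chr11:86584120-86584141 on the minus strand. The relative on chromosome 8 has the same seed, and that on chromosome 3 differs from it at 1 seed base. Vmp1, which overlaps the precursor gene of miR-21a, had log2 signals of 11.77 and 10.64 with antagomir-21 and 10.52 and 11.14 with scramble, so that the groups overlapped.

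Resident macrophage genes were read on all 4 arrays. Csf1r, the receptor for colony-stimulating factor 1, was at a log2 signal of 16.98 and 15.67 with antagomir-21 and of 15.65 and 17.79 with scramble. Adgre1, which encodes F4/80, was at 13.64 and 11.70 against 12.50 and 12.92, and Lyz2, which encodes lysozyme, at 17.99 and 15.87 against 16.50 and 16.80. In each case the groups overlapped. Of 24 measured genes of large peritoneal macrophage identity, 0 passed an unadjusted p under 0.05 from limma, beside 5.3% of all genes. The median log2 fold change of that list was 0.11 (14 higher, 10 lower, and −0.64 to 0.64 without 1 of the arrays), beside −0.05 over all 18193 genes.

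Arrays of 1 group did not resemble each other more than they resembled the other group. Across genes, the antagomir-21 arrays correlated with each other at r = 0.520 and the scramble arrays at r = 0.481, whereas antagomir-21 replicate 1 correlated with scramble replicate 2 at r = 0.612 and antagomir-21 replicate 2 with scramble replicate 1 at r = 0.559. The mean r was 0.5003 within and 0.543 between the groups (exact one-sided permutation p = 1 over 3 ways to pair 4 arrays, where the smallest possible p is 1 in 3). The values fell into a low and a high range on each array. Below a fixed log2 signal of 6 lay 25.9% and 16.6% of genes on the antagomir-21 arrays, and 16.9% and 23.5% on the scramble arrays. On the scramble arrays the bin from 6 to 6.5 held 5.36% and 5.43% of genes, more than the bins beside it. The level of 6 thus cuts through the low range there and does not mark its edge. In the 4549 genes with the highest mean signals, the average was 10.96 and 10.43 with antagomir-21 and 10.27 and 10.88 with scramble. Antagomir-21 replicate 1 and scramble replicate 2 were thus the higher arrays of their groups in the strongly read genes. A limma fit with a term for these 2 arrays against the other 2 was added after the data were seen. It gave 1147 genes at an unadjusted p under 0.05, beside 965 without the term. The cause of the difference between the arrays was not tested.

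**Figure D1:**
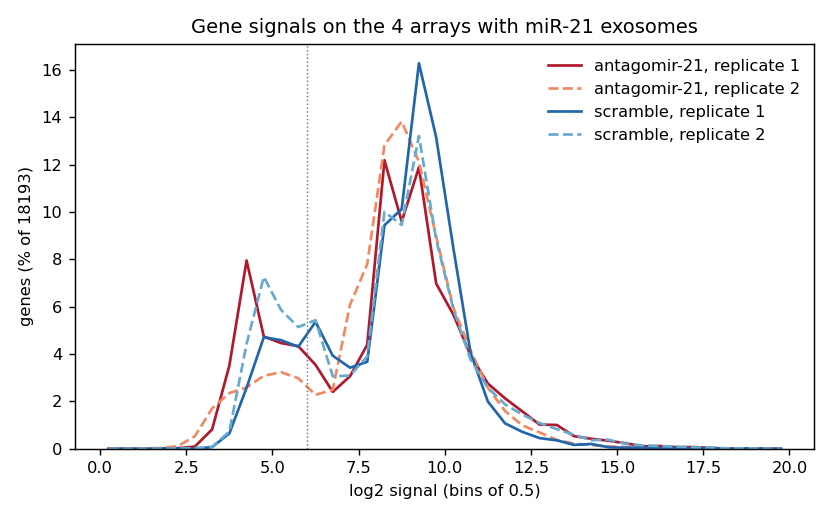
Share of the 18193 genes (y axis, percent) in bins of 0.5 of the log2 signal (x axis) on the 4 arrays with miR-21 exosomes; red lines are antagomir-21, blue lines scramble, and the dotted line marks a log2 signal of 6. Each array has its main peak between 8 and 10 and a second, smaller group of genes at lower signals. Antagomir-21 replicate 1 has the largest share of genes below 6 of these arrays (25.9%), a level that cuts through the smaller group on the scramble arrays.

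With miR-21 exosomes, the antagomir-21 arrays had higher signals of Tmem88b, Cyp1a2, Nfe2l1 and Cbx5 among others, and lower signals of Dnajc17, Chek1, Mlh3 and Fzd3 among others, but no gene passed in limma once p-values were adjusted. The methods call a gene at p under 0.05 and name no adjustment. At that unadjusted threshold, 965 of 18193 genes passed in limma, or 5.3% of those tested. Of these, 417 were higher (2.29%) and 548 lower (3.01%). None passed an adjusted p under 0.05 in limma (smallest adjusted p = 0.55), so every gene called passing below is so at the unadjusted threshold alone. An unpaired t test gave 2 genes at an adjusted p under 0.05, Ubd and Acot7, of which Acot7 did not pass the unadjusted threshold in limma. The methods name the unpaired t test for comparing 2 groups, but not in their array section. A test that permutes 2 arrays against 2 cannot go below 1 in 3. The groups did not overlap in 2054 genes that were higher (11.3%) and 2706 that were lower (14.9%). The smallest log2 fold change of a passing gene was 1.87 in size, and the median was 3.34. The count was 1538 (332 higher, 1206 lower) without antagomir-21 replicate 2, and the genes higher numbered 925 without scramble replicate 1 and 716 without scramble replicate 2. The balance of the directions also moved with the scaling: with each array centred on its median, which shifted all log2 fold changes by 0.21, 510 genes were higher and 435 lower, and after quantile normalization 539 and 522.

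**Figure D2:**
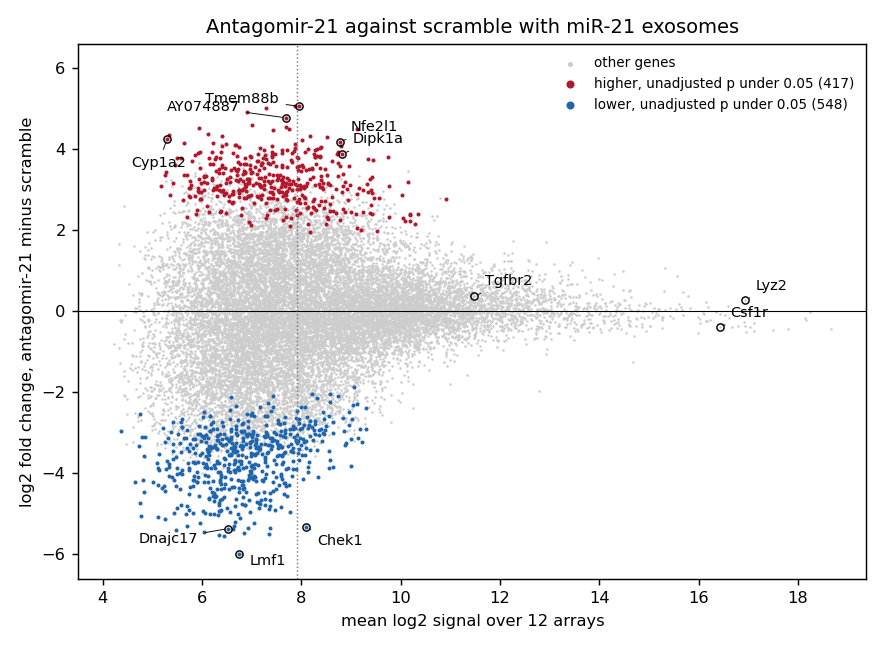
Log2 fold change of antagomir-21 against scramble (y axis) by the mean log2 signal over 12 arrays (x axis) for 18193 genes; red and blue points passed an unadjusted p under 0.05 from limma, and the dotted line marks the median signal. Most passing genes lie left of that line (741 of 965), and Csf1r and Lyz2 at the far right lie close to 0.

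Tmem88b (gene ID 320587), a transmembrane protein, led the genes that were higher when ranked by p. Its log2 signals were 9.40 and 9.08 with antagomir-21 and 4.28 and 4.07 with scramble, which is a log2 fold change of 5.06 (SE 0.78). Both scramble arrays were in the low range and both antagomir-21 arrays in the high one. AY074887 was at 9.09 and 9.001 against 4.75 and 3.79 (log2 fold change 4.78, SE 0.88). Cyp1a2 (gene ID 13077), a cytochrome P450 best known from the liver, was at 8.95 and 8.08 against 4.45 and 4.04 (4.26, SE 0.82). Tes, which encodes the focal adhesion protein testin, was at 9.76 and 9.31 against 5.47 and 5.54 (4.03, SE 0.80). The others of the first 8 were Dipk1a, Fam122a, an inhibitor of protein phosphatase 2A, Cbx5, which encodes heterochromatin protein 1α, and Mgme1, an exonuclease of mitochondrial DNA, with log2 fold changes of 3.68 to 4.08. Among genes above the median signal, Nfe2l1 (gene ID 18023), a transcription factor of proteasome genes, was at 9.35 and 9.40 against 5.81 and 4.58 (4.18, SE 0.94).

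Among the genes that were lower, Dnajc17 (gene ID 69408), a J-domain cochaperone, had log2 signals of 3.74 and 3.63 with antagomir-21 and 8.80 and 9.30 with scramble, a difference of −5.36 on the log2 scale (SE 0.85). The gene Chek1 (gene ID 12649), whose product halts division when DNA is damaged, was at 4.05 and 4.13 against 8.96 and 9.88 (−5.33, SE 0.94). Mlh3, a DNA mismatch repair protein, was at 5.16 and 3.41 against 9.43 and 9.82 (−5.34, SE 1.02). In these genes the antagomir-21 arrays were in the low range and the scramble arrays in the high one. Of all genes, 49.6% had values on both sides of a log2 signal of 6 over the 4 arrays. Among passing genes that were lower, 300 (54.7%) had both antagomir-21 arrays below 6 and both scramble arrays at or above it. The reverse held in 204 (48.9%) of those that were higher. Fzd3, a receptor for Wnt ligands, was at 4.23 and 4.77 against 9.15 and 8.46 (−4.30, SE 0.81). Lmf1, which is needed for the maturation of lipases, was at 4.11 and 1.75 against 8.43 and 9.39 (−5.98, SE 1.13). Olfml2b, Cldn11, a claudin of tight junctions, and Gm16226 completed the first 8, at −5.55, −4.90 and −5.00. Above the median signal, Dusp5 (gene ID 240672), a nuclear phosphatase of ERK, was at 4.07 and 6.20 against 9.57 and 8.98 (−4.14, SE 0.98). Anks3 was at −3.83, Fbh1, a DNA helicase, at −3.71, Srcin1, an inhibitor of Src kinase, at −3.40 and Spata17 at −3.02. Groups that do not overlap were a condition of choosing these genes, higher and lower. Their direction therefore could not change when 1 of the 4 arrays was left out, which is no separate support.

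Several of these genes are read by more than 1 probe set, and the one with the highest mean signal was used. For Chek1 the other 4 probe sets had log2 fold changes of −2.61, −0.56, −0.47 and −0.24, and for Dnajc17 the other 2 had −0.01 and 0.45. For Fzd3 the other 5 were at −1.11 to 2.08, for Cbx5 the other 4 at −1.33 to 1.49 and for Fam122a the other 2 at −1.46 and 1.65, and none of these passed. For Tes the second probe set was at −0.51, for Mgme1 at −0.53, for Lmf1 at −1.49, for Anks3 at −1.19, for Srcin1 at −0.86 and for Spata17 at 1.40. Of 342 passing genes with several probe sets, 73 also passed on the mean of their probe sets. Of the 965 passing genes, 741 (76.8%) had a mean signal at or below the median of all genes. The share of passing genes was 8.15% there and 2.46% above the median, where 145 were higher and 79 lower. Olfactory receptor genes, which macrophages are not known for, had a median signal of 6.50, and 2 of 38 measured (5.26%) passed.

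PMs given lipofectamine and the same exosomes entered the choice of these genes through the pooled spread and the choice of probe sets. For genes named above the median signal, such as Nfe2l1, they also entered through the mean signal. On the lipofectamine arrays Tmem88b was at 8.68 and 8.99, close to antagomir-21, and Nfe2l1 at 10.13 and 9.33. Chek1 was at 9.77 and 9.04 and Dnajc17 at 8.39 and 8.83, close to scramble. Cyp1a2 was at 4.65 and 4.33, close to scramble, and high with antagomir-21 only among these 3 groups. Over the 417 higher genes, the lipofectamine mean lay nearer to antagomir-21 in 297 (71.2%) and nearer to scramble in 120. Over the 548 lower genes, it lay nearer to scramble in 334 (60.9%) and nearer to antagomir-21 in 214. Over all genes it lay nearer to antagomir-21 in 51.9%. These shares describe the arrays and were not tested.

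**Figure D3:**
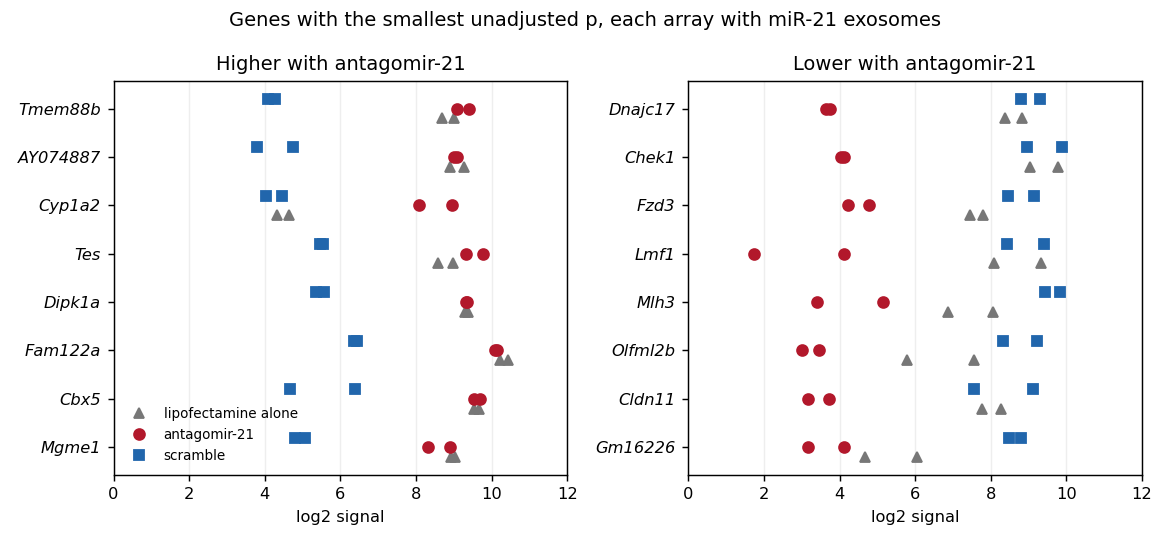
Log2 signals (x axis) of the 8 genes ranked first by p in each direction, 1 point per array with miR-21 exosomes: red circles antagomir-21, blue squares scramble, grey triangles lipofectamine. The red and blue points do not overlap in any of these genes, as the choice of the genes requires, and the grey points lie beside the red in Tmem88b and beside the blue in Chek1 and Cyp1a2.

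With GFP exosomes, antagomir-21 against scramble gave 979 genes at an unadjusted p under 0.05 (5.38%), from arrays that share none with those above except in the pooled spread. Of the 965 genes, 65 passed there in the same direction and 69 in the opposite one. The 65 are 6.74% of the genes passing with miR-21 exosomes and 6.64% of those passing with GFP exosomes. The log2 fold changes had the same sign with both exosomes in 9309 genes (51.2%), and across the 18193 genes, which share their arrays, r was 0.019. The interaction, which tests the difference between the antagomir-21 effects with the 2 exosomes, gave 975 genes at an unadjusted p under 0.05 (5.36%) and 0 at an adjusted p under 0.05 (smallest adjusted p = 0.59). For Tmem88b the log2 fold change was 5.06 with miR-21 exosomes and −0.70 with GFP exosomes, a difference of 5.76 (SE 1.10). For Chek1 it was −5.33 and 0.56, a difference of −5.89 (SE 1.33). For Olfml2b it was −5.55 and 2.98, a difference of −8.53 (SE 1.51). Each of these differences passed the unadjusted threshold. These genes were chosen for a small p with miR-21 exosomes, which is part of the difference, so this is no separate support. Of the 965 genes, 406 also passed in the interaction. The same limit holds for Ccn2 and Spry1 below. For Cldn11 the same direction was seen with both, −4.90 and −2.53, and the difference of −2.36 (SE 1.41) did not pass.

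TGF-β is made as a latent dimer, released by integrins and proteases, and signals through its type 1 and type 2 receptors to Smad2 and Smad3, which act with Smad4, while Smad7 and the Smurf ligases restrain it. No measured member of the ligand, receptor or Smad lists passed the unadjusted threshold (0 of 19, 0 of 12 and 0 of 18). Over all genes 5.3% passed. Of the ligands and their activators, 13 of 19 were higher, with a median log2 fold change of 0.53 that was 0.22 to 0.64 without 1 of the arrays and 0.24 on the mean of probe sets. In 4 of 19 the groups did not overlap and antagomir-21 was higher, beside 11.3% of all genes: Mmp2, a gelatinase, at 2.19 (SE 1.06, with its second probe set at −1.70), Ltbp4 and Ltbp1, which bind latent TGF-β, at 1.84 and 0.91, and Bmp2, a bone morphogenetic protein, at 0.45. Tgfb1 (gene ID 21803), which encodes TGF-β1, was at log2 signals of 10.27 and 8.68 with antagomir-21 and 9.09 and 4.47 with scramble. Its log2 fold change of 2.70 (SE 1.65) came with overlapping groups, was 0.39 without scramble replicate 2 and 5.01 without scramble replicate 1.

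Of 12 TGF-β family receptors, 6 were higher and 6 lower (median 0.12, and −0.36 to 0.08 without 1 of the arrays). Tgfbr2 (gene ID 21813), the type 2 receptor, was at 12.56 and 10.34 with antagomir-21 and 10.04 and 12.11 with scramble, and Tgfbr1, the type 1 receptor, at 10.997 and 9.30 against 8.78 and 9.89. In both genes the groups overlapped, with log2 fold changes of 0.38 (SE 1.06) and 0.81 (SE 0.91). Of the 2 other probe sets of Tgfbr2, which have lower mean signals, 1 was at 3.29, which passed, and 1 at −1.48. Tgfbr3, the coreceptor, was at 8.56 and 9.92 against 9.22 and 7.85 (0.71, SE 1.43). Eng, which encodes the coreceptor endoglin, was at 5.03 and 6.78 against 8.94 and 9.30, with both antagomir-21 arrays lower (−3.21, SE 1.68), whereas its second probe set was at 3.20 and passed in the opposite direction. Acvr1, an activin and BMP receptor, was also lower without overlap, at −0.30.

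Of 18 Smads and their regulators, 11 were higher and 7 lower (median 0.22, and −0.07 to 0.34 without 1 of the arrays). Smad2 was at 8.25 and 7.61 with antagomir-21 and 8.13 and 7.79 with scramble, Smad4 at 10.52 and 10.31 against 9.45 and 11.10, and Smad7 at 11.07 and 9.42 against 9.998 and 10.53. Their log2 fold changes were −0.03, 0.14 and −0.02, with SE of 0.85 to 1.46, and those of Smad2 and Smad7 turned positive with arrays centred on their medians. Smad3 was lower without overlap (−0.58, SE 1.14), but its other probe sets were at −0.93 and 2.25 and their mean with it at 0.25. Tgif1, a corepressor of Smads, was at 9.11 and 8.48 against 8.36 and 4.96 (2.13, SE 1.13). Smurf2 was at 0.64, with its other probe sets at −1.23 and −0.71 and the mean of all at −0.44. Nfya, a subunit of nuclear transcription factor Y, was at 10.26 and 9.15 against 10.11 and 10.05 (−0.37, SE 1.21). Of 18 genes known to be induced by TGF-β, 7 were higher and 11 lower, and 1 passed, beside 5.3% of all genes. Ccn2 (gene ID 14219), a matricellular protein, was at 8.13 and 7.20 against 4.57 and 3.79 (3.49, SE 1.12), and did not pass without antagomir-21 replicate 1 (3.02) or scramble replicate 2 (3.10). With GFP exosomes its log2 fold change was −3.40, and the difference between the exosomes was 6.89 (SE 1.59) and passed.

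Of 35 measured genes reported as targets of miR-21, 20 were higher and 15 lower with antagomir-21, and 0 passed, beside 5.3% of all genes. The groups did not overlap in 6 that were higher and 7 that were lower, beside 11.3% and 14.9% of all genes. The median log2 fold change was 0.20, and it was −0.44 to 0.18 when 1 array was left out. Pdcd4 (gene ID 18569), an inhibitor of translation, was at 12.73 and 12.65 with antagomir-21 and 11.70 and 12.56 with scramble (0.55, SE 0.84). Spry2, an inhibitor of ERK signaling, was at 10.12 and 11.60 against 10.77 and 10.14, with overlap (0.40, SE 0.93), and its second probe set was at −1.41. Its relative Spry1 was at 4.67 and 6.97 against 9.34 and 7.82, with both antagomir-21 arrays lower (−2.75, SE 1.25), and was at 2.98 with GFP exosomes, a difference of −5.74 (SE 1.77) that passed. Fbxo11, a ubiquitin ligase subunit, was at 10.01 and 9.75 against 8.72 and 7.18 (1.93, SE 0.94), and Skp2, another such subunit, was at −2.32 (SE 1.09). The other 5 probe sets of Skp2 were at −5.44 to −0.17, and those at −5.44 and −4.39 passed. The mean of the Skp2 probe sets was at −2.94 and passed. Marcks and Sesn1, the targets with the highest mean signals, overlapped between the groups, at 0.14 and 0.57.

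Among genes of the inflammatory response, 2 of 27 passed and were higher, beside 2.29% of all genes. Cd80 (gene ID 12519), a costimulator of T cells, was at 8.14 and 9.93 with antagomir-21 and 5.36 and 6.24 with scramble (3.24, SE 0.92), and passed whichever array was left out. Its other 3 probe sets were at 2.08, 2.10 and −3.63, of which the last passed in the opposite direction, and Cd80 did not pass on the mean of its probe sets. Ptgs2, which encodes cyclooxygenase 2, was at 9.57 and 10.25 against 8.63 and 6.28 (2.46, SE 0.97), and did not pass without scramble replicate 2 (1.28) or antagomir-21 replicate 2 (2.12). Tnf was at 8.92 and 4.78 against 8.93 and 9.16 (−2.19, SE 1.80), and Il6 at 3.67 and 8.09 against 8.18 and 8.69 (−2.56, SE 1.61). In both cytokine genes 1 antagomir-21 array lay far below the other: without replicate 2 the log2 fold change of Tnf was −0.12, and without replicate 1 that of Il6 was −0.35. Nos2, the inducible nitric oxide synthase, was at 8.18 and 8.78 against 6.28 and 7.56 (1.56, SE 1.30), and Ccl2, a monocyte chemoattractant, at 0.55. The median of the list was −0.19, and it was 0.33 after quantile normalization.

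Of 25 genes of alternative activation and of the antiinflammatory state, 15 were higher and 10 lower, and 0 passed, beside 5.3% of all genes. Mrc1, which encodes CD206, was at 12.34 and 11.22 with antagomir-21 and 10.32 and 11.56 with scramble (0.84, SE 0.90). Arg1, arginase 1, was at 12.31 and 11.27 against 10.70 and 12.39 (0.25), Il10 at 9.95 and 7.16 against 8.14 and 9.26 (−0.14, turning positive with centred arrays) and Chil3, a chitinase-like protein, at 7.37 and 7.93 against 9.25 and 7.497 (−0.72). Irf4, a transcription factor of this state, was higher without overlap (2.22, SE 1.05). Of 34 genes of NF-κB and Toll-like receptors, 17 were higher and 17 lower, and 1 passed, beside 5.3% of all genes. Ticam1, the adaptor TRIF of Toll-like receptors, passed at −4.16 (SE 1.80), from 5.72 and 3.93 against 8.44 and 9.53, but did not pass when any 1 array was left out (−5.06 to −3.27). Rela, the p65 subunit, was at −2.18 (SE 1.11) without overlap. Of 35 interferon-stimulated genes 14 were higher and 21 lower, and 3 passed, again beside 5.3%. Bst2, which encodes tetherin, was at −3.56 (SE 1.06), and did not pass without scramble replicate 1 (−2.56) or antagomir-21 replicate 1 (−2.61). Oasl1 was at 2.80 (SE 1.11), and did not pass without antagomir-21 replicate 1 (2.32) or scramble replicate 2 (2.39). Dhx58, a regulator of RNA sensing, was at 2.32 (SE 0.94), and did not pass without antagomir-21 replicate 2 (1.45) or scramble replicate 1 (1.90).

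Chemokine receptors guide leukocytes along chemokine gradients. Of 20 measured, 13 were lower and 7 higher with antagomir-21. The groups did not overlap in 8, all lower (14.9% of all genes were lower without overlap). The median log2 fold change was −0.63, −0.58 after quantile normalization and −1.02 to −0.68 without 1 of the arrays, whereas with GFP exosomes it was 0.04 (10 higher, 10 lower). Of the list, 3 passed and were lower, beside 3.01% of all genes. Ccr4 (gene ID 12773), a receptor of T cells, was at 4.97 and 3.40 with antagomir-21 and 9.03 and 8.10 with scramble (−4.38, SE 1.27), and passed whichever array was left out. Xcr1, a receptor of cross-presenting dendritic cells, was at 5.66 and 8.80 against 9.87 and 9.54 (−2.48, SE 1.06), and did not pass without antagomir-21 replicate 1 (−0.91). Cxcr5, a receptor of B cells, was at 5.39 and 3.69 against 8.09 and 6.68 (−2.84, SE 1.22), and did not pass without antagomir-21 replicate 2 (−1.99). Neither passed without scramble replicate 1 (−2.32 and −2.14), nor Xcr1 without scramble replicate 2 (−2.64). Cx3cr1, the fractalkine receptor, was at 5.16 and 5.28 against 7.38 and 8.005 (−2.47, SE 1.44). Its second probe set was at −1.43, and the mean of its probe sets was at −1.95 and passed. In the receptors with the highest mean signals the groups overlapped: Ccr1 was at 12.04 and 11.57 against 10.56 and 11.87 and Cxcr4 at 13.26 and 11.88 against 11.45 and 13.59 (0.59 and 0.05, the latter −0.05 after quantile normalization). Ccr2, the receptor for CCL2, was at 5.45 and 9.80 against 9.77 and 9.13 (−1.82, SE 1.26), where 1 antagomir-21 array was low and the log2 fold change without it, replicate 1, was 0.35. Another probe set of Ccr2 was at −4.36 and passed. The others were at −1.85 and −0.91, and the mean of its probe sets was at −2.23 and passed. The list was chosen with earlier results of these data known, and its median signal of 7.39 lies below the median of all genes, 7.91; genes at or below that median had a log2 fold change of −0.28 in the median.

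**Figure D4:**
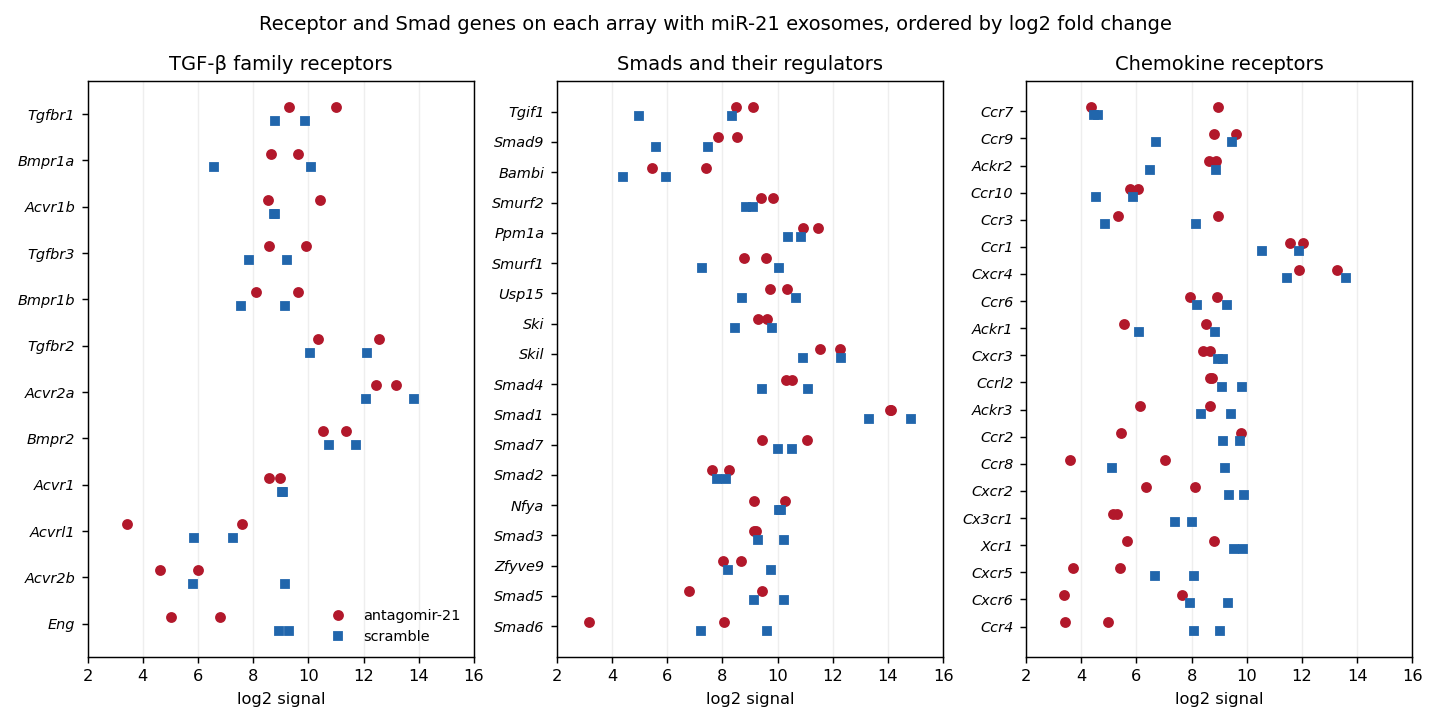
Log2 signals (x axis) of the TGF-β family receptors, the Smads and their regulators and the chemokine receptors, 1 point per array with miR-21 exosomes (red circles antagomir-21, blue squares scramble), ordered by log2 fold change. Red and blue points overlap in most receptors and Smads, and lie apart with red lower in 8 of 20 chemokine receptors.

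Of the 784 different genes measured in the 39 lists, 10 passed and were higher and 15 passed and were lower (3.19% in all, beside 5.3% of all genes). Most of these 25 genes lost the threshold without at least 1 of the 4 arrays. Those that kept it, in this and the other paragraphs, were named for passing on the same arrays, so this is no separate support. In metabolism, Fdps (gene ID 110196), a synthase of the cholesterol pathway, was at 9.77 and 9.33 with antagomir-21 and 5.17 and 4.81 with scramble (4.56, SE 1.46), with its second probe set at 3.10. Dgat2, which makes triglycerides, was at 5.46 and 6.10 against 10.34 and 8.77 (−3.77, SE 1.10), with its second probe set at −0.12. The cholesterol list as a whole had 10 genes higher and 9 lower, and the list of lipid uptake and storage 6 higher and 12 lower. Rpl12, a protein of the large ribosomal subunit, was at 9.03 and 8.09 against 4.501 and 4.72 (3.95, SE 0.90), and 23 of 33 ribosomal protein genes were higher, with a median of 0.21 that was −0.39 to 0.93 without 1 of the arrays. Fdps, Dgat2 and Rpl12 passed whichever array was left out. Chek1 and Bub1b, a kinase of the spindle checkpoint (−3.10, SE 1.08), were the 2 of 35 cell cycle genes that passed, beside 5.3% of all genes, and the median of that list was −0.05. Bub1b did not pass without antagomir-21 replicate 1 (−1.81) or scramble replicate 1 (−2.96), and its other probe sets were at −1.94 and 0.71.

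Genes of autophagy, PI3K signaling, the heat shock response and the respiratory chain that passed lost the threshold without at least 1 array. Atg5, which conjugates LC3 in autophagy, was at 8.06 and 3.36 with antagomir-21 and 9.76 and 8.97 with scramble (−3.66, SE 1.501), and was at −1.31 without antagomir-21 replicate 2. Pik3cd, a catalytic subunit of PI3K, was at 8.64 and 5.45 against 9.94 and 10.04 (−2.94, SE 1.19), and was at −1.35 without that array. Neither passed without it, nor without either scramble array (−3.26 and −4.05 for Atg5, −2.99 and −2.90 for Pik3cd). The other 2 probe sets of Atg5 were at −0.14 and 0.24, and of the other 5 of Pik3cd 1 was at −5.22 and passed, and 4 were at 0.12 to 1.24. Of 20 heat shock genes, 7 were higher and 13 lower, and 3 passed, beside 5.3% of all genes. Cryab, a small heat shock protein, passed and was higher (2.99, SE 1.18, with its other probe sets at 1.86 and −0.93), whereas Hspa1a, an inducible HSP70, and Dnajb4, a cochaperone, passed and were lower (−3.88, SE 1.65, and −2.32, SE 1.02). Each passed in only 1 setting of 4, without scramble replicate 1 for Cryab (3.65), scramble replicate 2 for Hspa1a (−5.02) and antagomir-21 replicate 2 for Dnajb4 (−3.64). Ndufb10, a subunit of respiratory complex I, was at 10.70 and 10.16 against 6.25 and 8.31 (3.15, SE 1.34) and passed only without scramble replicate 2 (4.18), and 28 of 54 genes of the respiratory chain were higher.

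Genes of MHC class I presentation were higher in 12 of 15, with a median of 0.65. Those of the lysosome were higher in 17 of 26, with a median of 0.18. Of either list 0 members passed, beside 5.3% of all genes. The MHC class I median was −0.06 to 1.37 and the lysosome median −0.70 to 1.08 without 1 of the arrays, and with GFP exosomes the medians were 0.59 and 0.77. Across the 39 lists, 23 medians were above 0 and 16 below. In 5 lists the median kept its sign in every setting of the array scaling, the probe set rule, the replicate term and the arrays left out, and in 34 it did not. The 5 were the TGF-β ligands, autophagy, the chemokine receptors and the markers of B cells and of mast cells. The average signal of the lysosome list, 13.66 and 11.97 with antagomir-21 and 12.41 and 12.85 with scramble, was highest on antagomir-21 replicate 1 and lowest on antagomir-21 replicate 2.

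**Figure D5:**
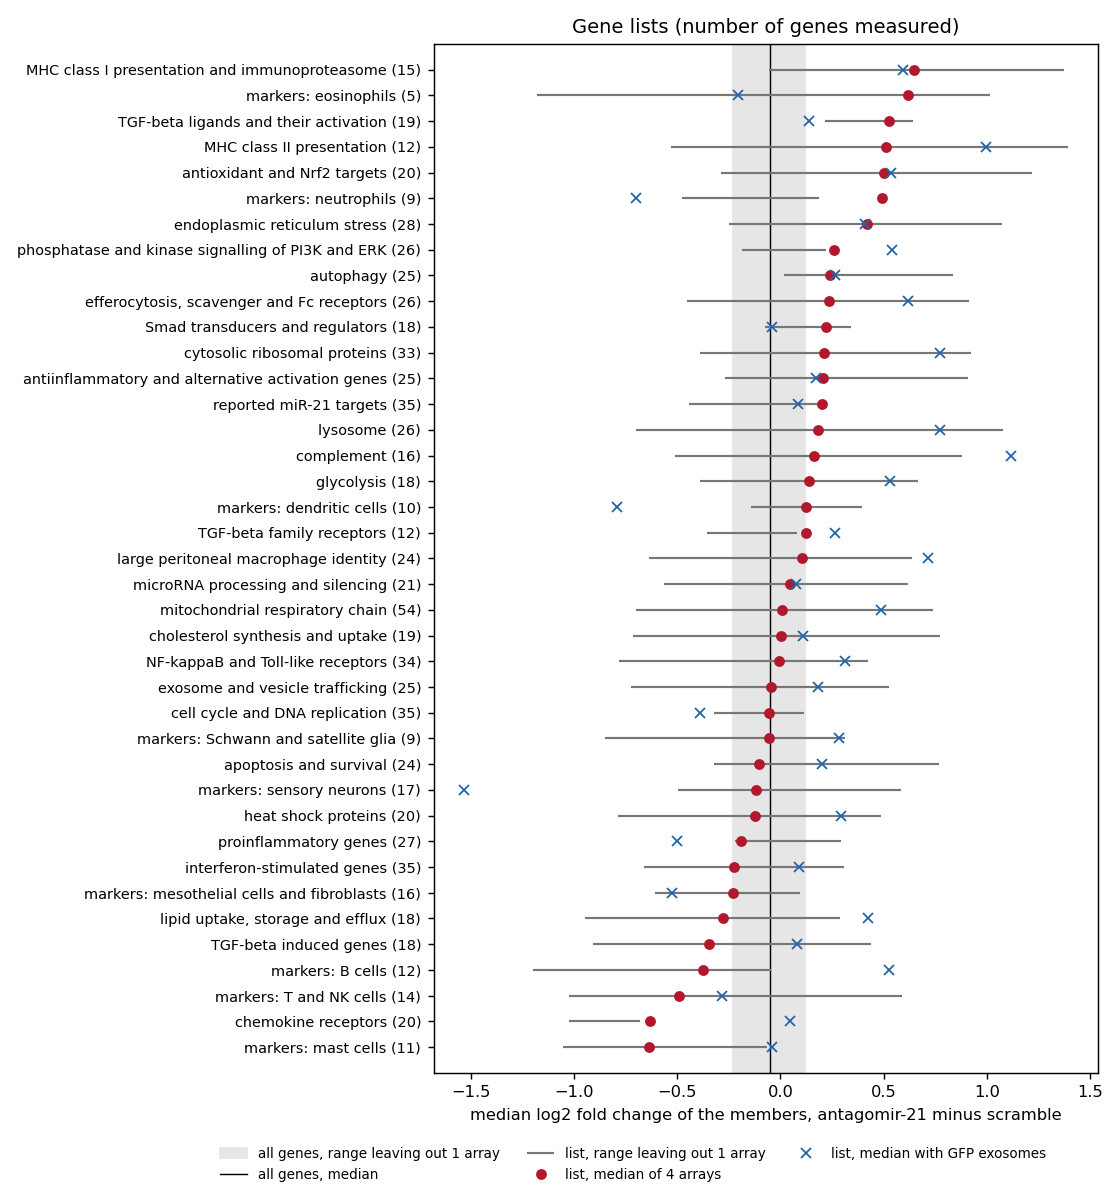
Median log2 fold change of antagomir-21 against scramble (x axis) over the members of each gene list (y axis, number measured in parentheses): red points with miR-21 exosomes, grey lines the range of that median when each of the 4 arrays was left out in turn, blue crosses the median with GFP exosomes, black line and grey band the same median and range over all genes. Most grey lines cross 0, and those of 5 lists do not: the TGF-β ligands (0.22 to 0.64) and autophagy (0.02 to 0.84) lie above 0, and the chemokine receptors (−1.02 to −0.68), B cell markers (−1.20 to −0.05) and mast cell markers (−1.05 to −0.06) below.

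Markers of other cells that a peritoneal preparation can hold were measured as well. Of 14 T and NK cell markers, 6 were higher and 8 lower, and 2 passed, beside 5.3% of all genes. Their average signal was 6.61 and 7.44 with antagomir-21 and 7.70 and 7.05 with scramble. Cd8a (gene ID 12525), the coreceptor of cytotoxic T cells, was at 4.62 and 3.43 against 10.44 and 8.20 (−5.30, SE 1.36). Its 4 other probe sets were at −3.28, −2.73, 1.70 and 1.77, and none of these passed. The mean signal of the probe set used was 6.65, near the olfactory receptor median of 6.50. Gzma, a granule protease, was at 8.47 and 8.88 against 5.50 and 5.93 (2.96, SE 1.01), in the opposite direction, and did not pass without antagomir-21 replicate 2 (2.76) or scramble replicate 1 (2.75). Of 10 dendritic cell markers, 6 were higher and 4 lower, with a median of 0.13 (−0.14 to 0.40 without 1 of the arrays). The average signal of that list was 7.45 and 7.31 against 7.91 and 7.41. Of its members 2 passed and were lower, beside 3.01% of all genes: Xcr1 and Siglech. Siglech, a lectin of plasmacytoid dendritic cells, was at 4.06 and 5.27 against 9.72 and 9.21 (−4.80, SE 1.31). Cd8a and Siglech passed whichever array was left out. Of 12 B cell markers 9 were lower and 0 passed, with an average of 9.26 and 9.06 against 9.14 and 9.96. Mast cell markers had a median of −0.64 (8 of 11 lower, 0 passed, and −1.05 to −0.06 without 1 of the arrays) and an average of 7.75 and 7.85 against 8.84 and 8.12, and neutrophil markers a median of 0.49 (6 of 9 higher, 0 passed, and −0.48 to 0.19 without 1 of the arrays). Of 16 markers of mesothelial cells and fibroblasts, with an average of 6.98 and 8.49 against 8.52 and 7.67, 1 passed, beside 5.3% of all genes: Lum, which encodes lumican, at 3.95 and 4.15 against 7.88 and 8.598 (−4.19, SE 1.79), but it did not pass when any 1 array was left out (−4.55 to −3.83). No marker of sensory neurons passed (0 of 17), and the average of that list was 6.91 and 8.37 against 7.87 and 7.60. In RNA of whole cultures, fewer cells of a type and less RNA per cell cannot be told apart, and the part of these markers in the values of the receptors named above was not tested.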

How the data were processed

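RNA of mouse PMs was read on Affymetrix expression arrays, 12 in all, 2 in each of 6 groups taken from the sample labels. The values used are log2 signals per probe set as deposited by the authors. The methods describe RMA with quantile normalization, but the quartiles of the deposited arrays differ, and the arrays share a trimmed mean on the linear scale (496 to 499 with 2% removed at each end). NuGEN kits are named in the labels, and a WT Pico kit in the methods. Signal over background cannot be judged from these values, and the number of arrays limits the precision.

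Of 45037 probe sets, 34945 carry 1 gene symbol in the platform table, 932 carry several and 9160 carry none there, and only the first kind was used. For 34741 the symbol was updated by gene ID from RefSeq. Where a gene had several probe sets (9010 of 18193 genes), that of highest mean signal on the 12 arrays stood for it. No build goes with the arrays, so genes are given without coordinates.

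Differences were tested with limma 3.58.1 in R 4.3.3 on 6 group means (6 residual degrees of freedom), with Benjamini-Hochberg adjustment over all genes, after a test on simulated data. Values of other probe sets come from a fit of every probe set. Named genes are the 8 of smallest p in each direction whose groups do not overlap, the 6 such genes above the median signal, genes of the study, and for each list the 2 members of highest mean signal and the 2 of smallest p (any member of the receptor, Smad and target lists). Csf1r, Adgre1, Ltbp1, Ltbp4, Bmp2, Dhx58, Cxcr5 and Dnajb4 were named outside this rule after their values were seen. The members and lists were chosen with earlier results of these data known. Lists are described by counts and medians. Alternatives were other scalings, probe set rules, filters, array weights, a mean-variance trend and the compared arrays alone. Further ones were an unpaired t test, a replicate block and leaving out each array. Deviations of same-numbered arrays correlated at −0.192 between the compared groups and at −0.192 to 0.167 over 15 pairs of groups, so the numbers do not pair the arrays.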

Additional observations from a re-analysis of the deposited data

How the results depend on the processing

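Counts of genes at an unadjusted p under 0.05 for antagomir-21 against scramble with miR-21 exosomes (965, 417 higher and 548 lower) were 2428 (1038 and 1390) with every probe set tested on its own, 360 (217 and 143) among genes above the median signal, where fewer genes were tested, and 479 (208 and 271) with array weights. Leaving out 1 array gave 990 to 1538 in all, 332 to 925 higher and 388 to 1206 lower. With GFP exosomes the 979 became 2630 and 269 under the first 2 settings and 678 to 1595 without 1 array. The interaction's 975 became 2483 and 322. No other setting run moved a total by over 1.5 times. Same-numbered arrays share only their number, and with the replicate block the count was 935. With the crossed pairing of the replicate numbers, added after the data were seen, it was 1147 (506 higher, 641 lower). That pairing sets antagomir-21 replicate 1 with scramble replicate 2, against the other 2 arrays. The unpaired t test gave 2 genes at an adjusted p under 0.05, Ubd and Acot7, named after their values were seen. Ubd passed the unadjusted threshold in limma and Acot7 did not. For Acot7 the standard deviation was 0.0024 within antagomir-21 and 0.0012 within scramble, beside 2.08 over the 12 arrays. For Ubd it was 0.009 and 0.008, beside 1.70. The t test takes its spread from the 2 arrays of each group, so these 2 results rest on very close replicate values. The cause of the other differences was not tested. Of 44 named genes past the threshold, 0 changed sign in any setting, and of 149 others, 97 changed sign in at least 1. The 44 passed on these same arrays with large log2 fold changes. Several settings, such as the mean-variance trend and the t test, leave the log2 fold change as it is. The contrast between the 44 and the others is therefore no separate support. The 2 arrays per group limit what can be detected.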
